A study of Mus musculus with 6 samples.

Results

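The enzymes that crosslink the cornified envelope and process filaggrin, together with 2 scaffold proteins on which the envelope is built, were measured as 10 genes out of 21369 named on the array. They were listed by name, as the transglutaminases Tgm1, Tgm3 and Tgm5, the proteases Casp14 and Asprv1, the peptidylarginine deiminases Padi1, Padi2 and Padi3, and the plakins Evpl and Ppl. Tgm3 and Padi2 had 2 probes each and the other 8 genes had 1, and each gene is given by its brightest probe unless stated.

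The cornified envelope is a sheet of protein that replaces the plasma membrane of keratinocytes when they die at the skin surface. Envoplakin (Evpl) and periplakin (Ppl) are laid down first under the membrane. Transglutaminases then join them to involucrin, loricrin and small proline-rich proteins by bonds between glutamine and lysine side chains. In the same cells profilaggrin is cut into filaggrin, which bundles keratin filaments, is deiminated, and is broken down to the free amino acids that hold water in the outer skin.

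RNA came from dorsal epidermis of mouse embryos labelled E16 (129SvEx:C57BL/6), peeled off the skin after dispase digestion, and each of 6 arrays carried 1 knockout sample in one dye and 1 wild-type littermate sample in the other. The knockouts were Sox4cKO, Sox11cKO and Sox4/11 dcKO, called Sox4 cKO, Sox11 cKO and dcKO here, with 2 arrays (2 biological replicates) each. SOX4 and SOX11 are closely related transcription factors of the HMG-box family. Per the study's methods, floxed Sox4, floxed Sox11 or both were deleted by Cre under the Krt14 promoter. This promoter is active in basal keratinocytes, and cells of the sheet that neither are nor descend from such cells keep the genes. The Krt14-Cre line was on FVB/N and the floxed founders also carried Sox12-/-. The Sox12 state of the profiled embryos, the alleles of the wild-type littermates and whether 1 wild-type sample served several arrays are not given in the sources used here. Replicate 1 had the knockout in Cy5 and replicate 2 had it in Cy3 in each genotype. Values are log2(knockout/wild type), so that 1 is a doubling in the knockout and 0 is no difference. SE, 95% intervals and p-values adjusted over all 55681 probes come from limma, with 0.05 as the threshold.

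One Sox4 probe (A_55_P2131899) was well above background in the wild type of every array. Its signal fell in Sox4 cKO by a factor of at least 3.05 (adjusted p = 0.0284) and in dcKO by one of at least 3.0 (adjusted p = 0.00223), while the other (A_55_P2121613) read −0.42 (adjusted p = 0.802) and −0.82 (adjusted p = 0.0768). Neither Sox11 probe was well above background in the knockout channel of Sox11 cKO or dcKO, and none passed (adjusted p between 0.196 and 0.979), so the arrays gave no check of the Sox11 deletion. The study states that it verified the loss of Sox4, Sox11 or both by RT-qPCR in this epidermis before using the RNA for the arrays. Defining markers of basal (7 of 7) and suprabasal (6 of 6) keratinocytes were well above background in all samples. In the wild-type sample of Sox4 cKO replicate 1, 7 of 8 skeletal muscle markers were above background, against 1 to 6 in the other wild-type samples, and the median of the 7 dermal fibroblast markers on that array was −3.42, against 0.98 on Sox4 cKO replicate 2. The part of these other cells in the values of that array was not tested. In whole epidermis fewer cells of a kind and less RNA per cell cannot be told apart.

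In dcKO epidermis the proteases Asprv1 and Casp14 and the brighter Tgm3 probe had the highest values, at 0.88, 0.64 and 0.61, among the 7 genes well above background in all 4 channels, and Evpl had the lowest, at −0.29. None of the 10 passed the adjusted threshold in dcKO, where 0.833% of all probes did. The unadjusted limma p was under 0.05 for 3 of the 10 genes, against 9.89% of all probes. Under the colour adjustment that the study's methods name, ComBat, Asprv1, Casp14 and Tgm3 passed (adjusted p between 0.0335 and 0.0445 by limma). In that fit 3628 of 55681 probes passed, and the removed colour effect was not counted in its degrees of freedom. No member reached the rule of the study's methods, an adjusted p under 0.05 with an absolute log2 over 1.5, which 0.207% of probes met in dcKO. The legend of the study's heat map of these arrays names a fold change over 1.5 instead. Asprv1, Casp14 and the brighter Tgm3 probe were 1.84-, 1.56- and 1.53-fold higher in dcKO, without passing the adjusted threshold in the fit reported here. Sox4 cKO and Sox11 cKO had 0 members past the threshold, where 0.00539% and 0% of probes passed. Their unadjusted counts were 0 and 3 of 10, against 6.18% and 7.05% of all probes.

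**Figure D1:**
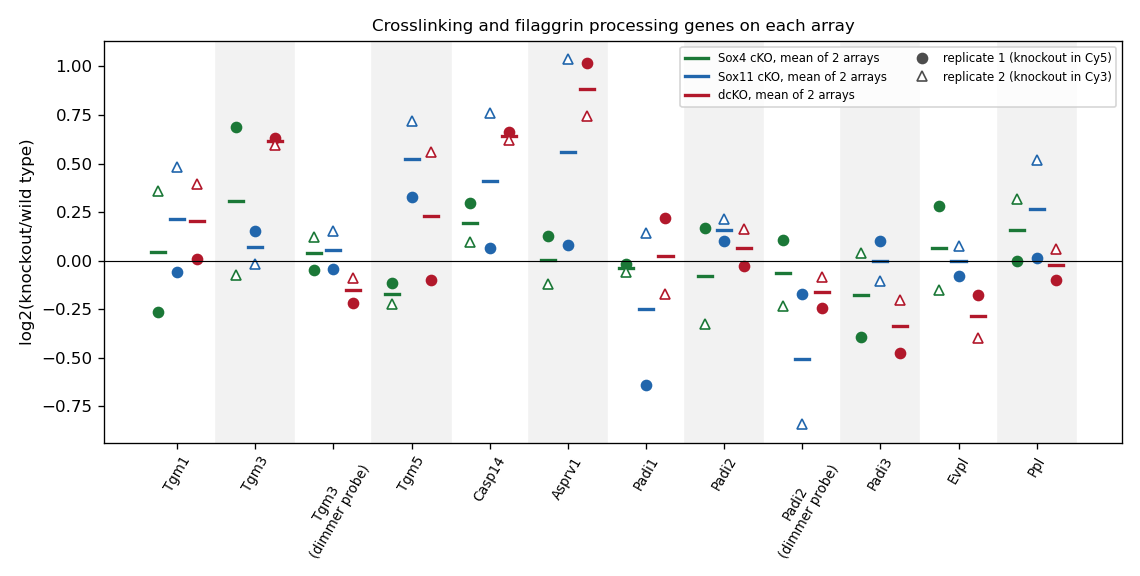
Each point is the log2(knockout/wild type) of 1 probe on 1 array (vertical axis), by gene (horizontal axis), with filled circles for replicate 1, open triangles for replicate 2 and a bar for the mean of the 2 arrays. Asprv1, Casp14 and the brighter Tgm3 probe lie between 0.60 and 1.02 on both dcKO arrays, and the 2 Tgm3 probes lie on opposite sides of 0 in dcKO.

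The promoters of the 3 genes with the highest dcKO values are shown because SOX proteins act through short A/T-rich motifs in DNA. They are RefSeq windows on GRCm38.p6 from 250 bases before to 50 bases after the annotated start, each on the gene's own strand: Asprv1 at chr6:86627924-86628223 (plus strand), Casp14 at chr10:78718244-78718543 (minus strand) and Tgm3 at chr2:130012090-130012389 (plus strand). Capitals mark matches, on either strand, to the SOX-type ACAAAG and ACAATG, the AP-1-type TGANTCA, the grainyhead-type AACCNGTT, the C/EBP-type TTGCNNAA and the TATA-type TATAAA, where N is any base.
Asprv1: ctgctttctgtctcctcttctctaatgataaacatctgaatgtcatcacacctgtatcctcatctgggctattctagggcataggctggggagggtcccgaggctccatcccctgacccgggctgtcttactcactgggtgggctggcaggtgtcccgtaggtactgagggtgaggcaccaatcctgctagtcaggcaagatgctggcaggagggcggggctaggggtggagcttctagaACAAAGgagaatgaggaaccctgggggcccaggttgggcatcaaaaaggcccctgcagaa
Casp14: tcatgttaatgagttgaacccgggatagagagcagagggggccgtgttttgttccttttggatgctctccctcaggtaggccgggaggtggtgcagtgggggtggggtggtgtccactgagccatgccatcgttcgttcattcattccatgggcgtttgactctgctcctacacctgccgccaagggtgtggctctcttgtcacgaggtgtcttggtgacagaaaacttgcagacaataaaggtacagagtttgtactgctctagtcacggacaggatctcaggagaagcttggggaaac
Tgm3: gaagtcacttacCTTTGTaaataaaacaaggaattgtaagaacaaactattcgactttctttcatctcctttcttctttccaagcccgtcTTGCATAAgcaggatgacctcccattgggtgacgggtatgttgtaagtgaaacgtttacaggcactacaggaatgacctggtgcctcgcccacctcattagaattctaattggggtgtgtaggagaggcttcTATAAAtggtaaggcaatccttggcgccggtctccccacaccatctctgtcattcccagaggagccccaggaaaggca
The Asprv1 window held 1 ACAAAG that begins 10 bases before the start. The Tgm3 window held ACAAAG on the opposite strand, beginning 238 bases before the start, 1 TTGCNNAA at 160 bases and 1 TATAAA at 28 bases before it, and the Casp14 window held none of the 6 motifs. No 2 of the marked matches overlapped. ACAAAG was present in 18.7% of 32851 promoter windows of the same length, ACAATG in 12.6%, TGANTCA in 7.81%, AACCNGTT in 2.09%, TTGCNNAA in 10.8% and TATAAA in 13.6%. Of the 8 member genes with a window in the table, 2 held ACAAAG and 0 held ACAATG. These matches describe letters only, and binding at them was not measured here.

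Tgm1 encodes the membrane-anchored transglutaminase, the main crosslinking enzyme of the envelope. Its log2(knockout/wild type) was −0.26 and 0.36 in Sox4 cKO, −0.06 and 0.48 in Sox11 cKO, and 0.01 and 0.40 in dcKO (replicates 1 and 2). The value was higher with the knockout in Cy3 than in Cy5 in all 3 genotypes, while the genotype means were 0.05, 0.21 and 0.20. The fitted dcKO value was 0.20 (SE 0.13, n = 2 arrays, 95% interval −0.09 to 0.50, adjusted p = 0.663 by limma).

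Tgm3 encodes a cytosolic transglutaminase made as a zymogen and activated by cleavage. The brighter probe (A_51_P495560) read 0.69 and −0.07 in Sox4 cKO, 0.15 and −0.02 in Sox11 cKO, and 0.63 and 0.60 in dcKO. It was higher than the wild type on both arrays in dcKO alone, by 0.61 (SE 0.16, 95% interval 0.26 to 0.97, 1.53-fold, unadjusted p = 0.00368 and adjusted p = 0.179 by limma). The second probe (A_55_P2163493), also well above background in all 12 channels, read −0.22 and −0.09 in dcKO, with a fit of −0.15 (95% interval −0.44 to 0.13, adjusted p = 0.755 by limma). The intervals of the 2 probes do not overlap, so the direction for Tgm3 in dcKO depends on the probe. With both probes averaged the value was 0.23 (adjusted p = 0.637).

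Tgm5 encodes a further transglutaminase of the upper epidermal layers. Its log2(knockout/wild type) was −0.11 and −0.23 in Sox4 cKO, 0.33 and 0.72 in Sox11 cKO, and −0.10 and 0.56 in dcKO. Both Sox4 cKO arrays lay below 0 and both Sox11 cKO arrays above it. The Sox11 cKO fit was 0.52 (SE 0.16, unadjusted p = 0.00932 and adjusted p = 0.694 by limma), and the wild-type sample of Sox11 cKO replicate 2 was not well above background for this probe.

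Casp14 encodes caspase-14, a caspase of cornifying keratinocytes that takes part in the breakdown of filaggrin. The probe read 0.30 and 0.09 in Sox4 cKO, 0.06 and 0.76 in Sox11 cKO, and 0.66 and 0.62 in dcKO. All 6 arrays were above 0, and the dcKO arrays lay closer to each other than the Sox11 cKO arrays did. The dcKO fit was 0.64 (SE 0.17, 95% interval 0.25 to 1.03, 1.56-fold, unadjusted p = 0.00476 and adjusted p = 0.206 by limma). In Sox11 cKO it was 0.41 (adjusted p = 0.705) and in Sox4 cKO 0.20 (adjusted p = 0.899).

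Asprv1 encodes an aspartic protease of the retroviral type that cuts the linkers of profilaggrin. The log2(knockout/wild type) was 0.13 and −0.12 in Sox4 cKO, 0.08 and 1.04 in Sox11 cKO, and 1.02 and 0.75 in dcKO. Sox11 cKO replicate 2 was thus as high as the dcKO arrays while Sox11 cKO replicate 1 was near 0. The dcKO fit was 0.88 (SE 0.21, 95% interval 0.40 to 1.36, 1.84-fold, unadjusted p = 0.00252 and adjusted p = 0.148 by limma). Without dcKO replicate 1 the dcKO value was 0.57 (adjusted p = 0.779) and without dcKO replicate 2 it was 1.20 (adjusted p = 0.153). Leaving out either Sox11 cKO array, which cannot move the dcKO mean in this design, changed the estimate of spread and the adjusted p to 0.0271.

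The peptidylarginine deiminases turn arginine of filaggrin and keratins into citrulline, which loosens filaggrin from the filaments. Padi2 and Padi3 were not well above background in any of the 12 channels, and Padi1 was above it in 3 of 12. Their log2 ratios lay between −0.64 (Padi1, Sox11 cKO replicate 1) and 0.22 (Padi1, dcKO replicate 1), and since both samples were dim no fold is given. The second Padi2 probe (A_55_P2091359), equally dim, read −0.17 and −0.84 in Sox11 cKO, opposite in sign to 0.10 and 0.21 from the first. Differences in these 3 transcripts were not detectable at this signal.

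Evpl and Ppl encode the plakins that form the first layer of the envelope, and both were well above background in all 12 channels. Evpl read 0.28 and −0.15 in Sox4 cKO, −0.08 and 0.08 in Sox11 cKO, and −0.18 and −0.40 in dcKO. In dcKO alone were both arrays on the same side of 0, with a fit of −0.29 (SE 0.14, 95% interval −0.62 to 0.04, adjusted p = 0.57 by limma). Ppl read −0.0015 and 0.32 in Sox4 cKO, 0.01 and 0.52 in Sox11 cKO, and −0.10 and 0.06 in dcKO. Its dcKO fit was −0.02 (SE 0.13, 95% interval −0.32 to 0.28, adjusted p = 0.981 by limma), and like Tgm1 it was higher with the knockout in Cy3 in all 3 genotypes.

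Counted by direction, 4 of the 7 members well above background in all 4 dcKO channels were higher on both arrays (Asprv1, Casp14, Tgm1 and Tgm3) and 1 was lower (Evpl). Tgm3 counts here by its brighter probe, since its second probe read −0.22 and −0.09, and Tgm1 read only 0.01 on replicate 1. Among all genes that met the same background condition, 29.2% were higher on both dcKO arrays and 31.5% were lower. In Sox11 cKO 3 of 6 such members were higher on both arrays (Asprv1, Casp14 and Ppl) and 0 were lower, against 22.4% and 22.2% of genes. In Sox4 cKO 1 of 7 was higher (Casp14) and 1 was lower (Tgm5), against 24.4% and 22.3%. The median over all 10 members was 0.14 in dcKO, 0.18 in Sox11 cKO and 0.03 in Sox4 cKO, beside −0.01, 0.00 and 0.00 over all 21369 genes. By array, the median of the 10 was −0.01 and 0.28 in dcKO, 0.07 and 0.35 in Sox11 cKO, and 0.06 and −0.06 in Sox4 cKO (replicates 1 and 2), so the dcKO and Sox11 cKO medians rest mostly on replicate 2.

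The double and single knockouts were compared within the same fit, to ask whether loss of both genes gave values that loss of one did not. No member passed in dcKO minus Sox4 cKO (0.147% of probes passed), in dcKO minus Sox11 cKO (0.163%) or in dcKO minus the sum of both single knockouts (0.088%), with unadjusted limma counts of 1, 1 and 0 of 10, against 6.12%, 7.21% and 6.38% of all probes. Asprv1 was the 1 in the first, with a difference of 0.88 (SE 0.30, 95% interval 0.20 to 1.56, unadjusted p = 0.0168, adjusted p = 0.72). Tgm3, by its brighter probe, was the 1 in the second, with a difference of 0.55 (SE 0.22, 95% interval 0.04 to 1.05, unadjusted p = 0.0365, adjusted p = 0.672), while its second probe read −0.21 (95% interval −0.61 to 0.20). For Casp14 the difference from Sox4 cKO was 0.45 (95% interval −0.10 to 1.00) and that from Sox11 cKO was 0.23 (−0.32 to 0.78). The largest departure from the sum of the single knockouts was that of Ppl, −0.44 (95% interval −0.97 to 0.08, adjusted p = 0.814 by limma). The 95% interval of that departure included 0 for each of the 10 genes.

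**Figure D2:**
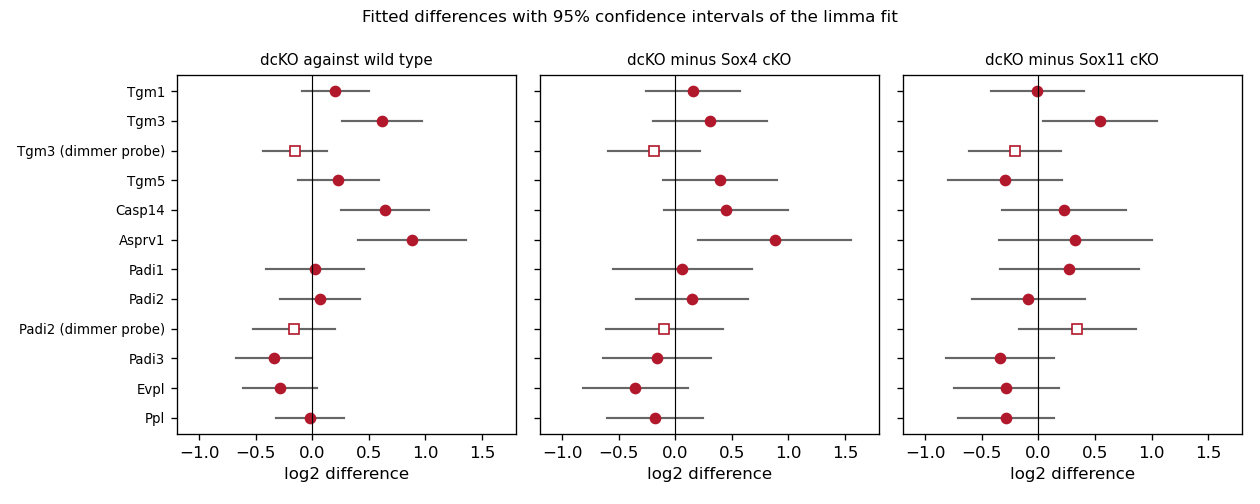
Points are fitted log2 differences (horizontal axis) of each probe (vertical axis) for dcKO against wild type, dcKO minus Sox4 cKO and dcKO minus Sox11 cKO, and bars are 95% confidence intervals. In dcKO against wild type the unadjusted intervals of Asprv1, Casp14 and the brighter Tgm3 probe exclude 0, and in the other panels only those of Asprv1 (minus Sox4 cKO) and the brighter Tgm3 probe (minus Sox11 cKO) do.

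Levels in the separate channels show which sample of a pair carried a difference. They are log2 signals after loess and Aquantile normalization, comparable within a probe only, and the wild type was read in Cy3 on replicate 1 and in Cy5 on replicate 2. The wild-type level of Asprv1 was 15.46 and 15.22 on the Sox4 cKO arrays, 14.51 and 13.69 on the Sox11 cKO arrays, and 15.00 and 15.12 on the dcKO arrays. Its knockout level was 15.59 and 15.10 in Sox4 cKO, 14.59 and 14.72 in Sox11 cKO, and 16.02 and 15.87 in dcKO. The dcKO samples were thus the highest of the 12, while the Sox11 cKO samples lay below all wild-type samples of the Sox4 cKO and dcKO arrays, and the ratio of 1.04 on Sox11 cKO replicate 2 came with the lowest wild-type level of the 6. Casp14 had the same order, with dcKO at 12.30 and 12.15, Sox11 cKO at 10.98 and 10.98, and its lowest wild-type level, 10.22, on Sox11 cKO replicate 2.

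That wild-type sample was the lowest of the 6 for 7 of the 10 members (Tgm1, Tgm3, Tgm5, Casp14, Asprv1, Padi1 and Ppl). Of these, Tgm5 and Padi1 were not well above background in it, and the matching share over all genes was not counted. The summed level of the 6 suprabasal keratinocyte markers was also lowest in that sample, 16.74 against 17.32 to 17.88 in the other wild-type samples. The 7 basal markers summed to 16.77 there, against 16.77 to 16.87. The knockout-to-wild-type difference of the suprabasal sum was 0.17 and 1.03 in Sox11 cKO, 0.67 and 0.34 in dcKO, and 0.32 and −0.21 in Sox4 cKO. All 6 suprabasal markers were higher on both arrays in dcKO and in Sox11 cKO, and none passed the adjusted threshold. Periderm markers, of the transient outer layer of the embryonic epidermis, were lower on both dcKO arrays for 6 of 6, with 3 passing and a median of −1.17, and their summed level was 11.84 and 11.89 in the dcKO samples against 12.93 to 13.87 in the wild-type samples. The periderm markers were also lower in Sox11 cKO, on both arrays for 4 of 6, with a median of −1.15 and none passing, and their sums were 12.98 and 13.39 beside 13.87 and 13.81 in the wild-type samples of the same arrays. In Sox4 cKO 5 of 6 were higher on both arrays and 1, Krt17 (fit −0.94), was lower (median 0.48, none passing). The periderm sums there were 12.85 and 13.03 beside 12.93 and 13.20 in the wild-type samples, so the sum was slightly lower in the knockout. Dermal fibroblast markers were lower on both dcKO arrays for 6 of 7 (median −1.90, none passing), with sums of 13.18 and 12.91 in dcKO against 12.60 to 14.42 in the wild-type samples. In every sample all 6 periderm markers and 6 or 7 of the 7 dermal fibroblast markers were well above background, the exception being Pdgfra. The part of these cell types in the members' values was not tested.

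**Figure D3:**
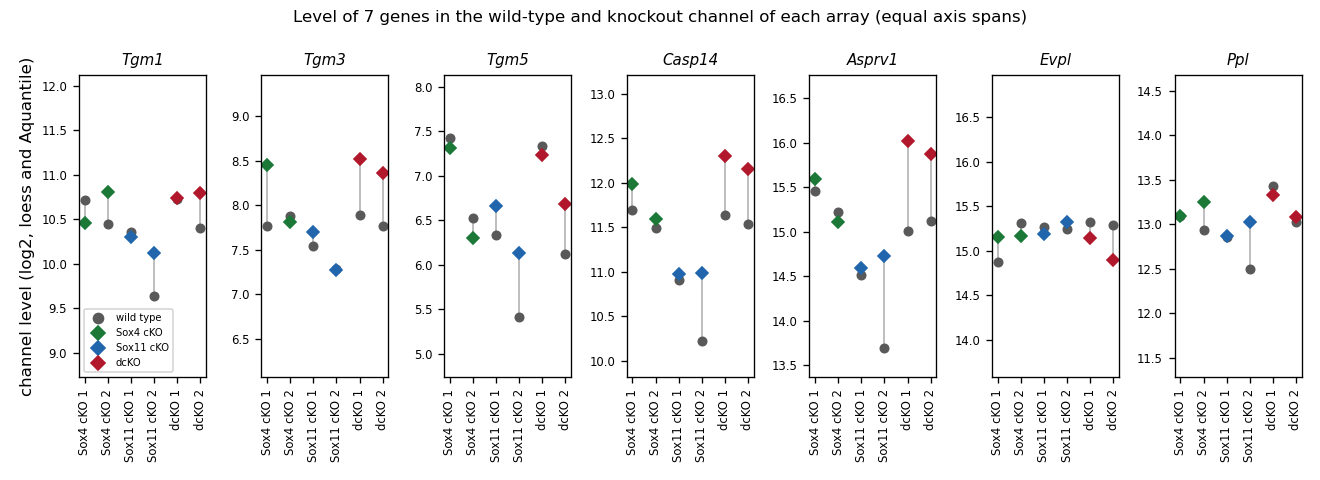
Each panel plots the log2 channel level (vertical axis, equal span in each panel) of 1 gene in the wild-type (grey circles) and knockout (diamonds) sample of each of the 6 arrays (horizontal axis, genotype and replicate), for the 7 genes above background in at least 11 of 12 channels. Asprv1 and Casp14 reach their highest levels in the dcKO samples, and the wild-type sample of Sox11 cKO replicate 2 is the lowest wild type for each gene but Evpl.

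The genes whose pattern was most like that of Asprv1, the member with the largest dcKO value, were found by Pearson correlation over the 6 arrays among 10395 genes above background in every channel. They were Sult2b1 (r = 0.9953), a sulfotransferase that makes cholesterol sulfate, then Slc5a9 (0.9886), Vasn (0.9854), Nccrp1 (0.9845) and Lamp3 (0.9841). All 5 were highest on Sox11 cKO replicate 2 and the dcKO arrays, and their size differed widely. Nccrp1 read 2.82 on Sox11 cKO replicate 2 and 2.49 and 2.21 in dcKO, while Lamp3 read 0.02, 0.04 and 0.02. Casp14 stood 14th by the same measure (r = 0.968), while r was 0.255 for Tgm3, 0.364 for Tgm1, 0.0899 for Ppl and −0.226 for Evpl. The 6 points share 1 slide and include the pair of dye orientations, so these values are descriptions.

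The substrates of the enzymes were then examined, from a list of 21 genes of envelope proteins, filaggrin relatives and the keratins that filaggrin bundles, of which Krt1 and Krt10 are also suprabasal markers. The list was drawn up with earlier results of these data known, so its counts are descriptions. In dcKO 9 of the 21 rose past the threshold and 0 fell past it, where 0.833% of all probes passed. The list median was 0.81, beside 0.14 for the 10 members, of which Padi1, Padi2 and Padi3 were dim. By direction alone, 15 were higher and 3 were lower on both dcKO arrays. Among all genes well above background in all 4 dcKO channels, as 18 of the 21 were, 29.2% were higher and 31.5% were lower. Filaggrin (Flg) read 4.50 and 4.83 in dcKO (fit 4.66, SE 0.13, adjusted p = 2.69e-06 by limma), and Flg2, its S100-fused relative, read 3.71 and 2.08 (adjusted p = 0.00998), with its wild type above background on 1 of 2 arrays. The late envelope proteins Lce1b (4.63, adjusted p = 2.69e-06) and Lce1m (4.18, adjusted p = 0.000674), the proline-rich Kprp (3.25, adjusted p = 7.64e-05) and Lelp1 (2.18, adjusted p = 0.000149) rose too. The other 3 fitted at 0.86 to 1.66, and the lowest of them, at least 1.59-fold higher (adjusted p = 0.0439), had a wild type not well above background. In the same samples the member proteases Asprv1 and Casp14 read 0.88 and 0.64, neither past the threshold. Other proteases of filaggrin processing follow below. In Sox4 cKO and Sox11 cKO 0 of 21 passed, with medians of 0.10 in each. In Sox4 cKO 7 were higher on both arrays and 2 were lower, and Flg had the largest fit (0.86 and 1.27, adjusted p = 0.136 by limma). In Sox11 cKO 6 were higher and 4 were lower, with a largest fit of 1.31. Only 11 of the 21 were well above background in all 4 Sox11 cKO channels. Flg, Lce1b, Kprp and Lelp1 were above it in 0 of these channels, so a change in them could not be read there.

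The lists that follow were also drawn up with earlier results of these data known. In dcKO 0.833% of all probes passed, and 29.2% of genes well above background in all 4 channels were higher on both arrays. Of 11 further genes of filaggrin breakdown and desquamation, all 11 were higher on both dcKO arrays and 4 rose past the threshold, with a list median of 0.59. These 4 were Klk7, a kallikrein protease of desquamation (2.34 and 2.58, fit 2.46, adjusted p = 8.6e-05), Hal, the histidase that makes urocanic acid from filaggrin's histidine (2.31 and 1.54, fit 1.92, adjusted p = 0.00268), Blmh, the bleomycin hydrolase that trims filaggrin peptides (0.89 and 1.40, fit 1.15, adjusted p = 0.0155), and Prss8, a channel-activating protease linked to profilaggrin processing (0.80 and 1.17, fit 0.99, adjusted p = 0.0112). The same list had medians of 0.23 in Sox11 cKO and 0.07 in Sox4 cKO, and 0 of 11 passed in either. Hal nevertheless read 1.58 and 1.88 in Sox11 cKO (fit 1.73, adjusted p = 0.0951 by limma), near its dcKO values. Blmh and Prss8 fitted at 0.62 and 0.23 there. Klk7 fitted at 0.04 in Sox11 cKO, but no channel of those arrays was well above background for it, so a change could not be read.

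Of 8 genes that make the lipid envelope of corneocytes, 2 rose past the threshold in dcKO, where 0.833% of all probes passed. They were Sdr9c7, a dehydrogenase of acylceramides (1.05 and 0.85, adjusted p = 0.0166), and Abca12, the lipid carrier of lamellar granules (0.78 and 0.89, adjusted p = 0.0216). On both arrays 7 of the 8 were higher in dcKO (list median 0.50), 6 in Sox11 cKO (0.35) and 2 in Sox4 cKO (0.04). In each genotype 0 were lower on both, and 0 passed in the single knockouts. Of 13 transcription factors of keratinocyte differentiation, 2 rose, Maf (1.78 and 1.57, adjusted p = 0.00141) and Prdm1 (1.02 and 0.90, adjusted p = 0.042), with a list median of −0.06. Relatives of the members outside the 10 gave no call. Of 6 other transglutaminase genes and 2 other deiminase genes 0 passed in any genotype, and of these 8 only F13a1, the factor XIII A chain, was above background in all 4 dcKO channels (−0.62 and 0.16). Of 5 other plakins, all above background, 0 passed. Dst, which anchors keratins at the hemidesmosome, read −0.77 and −0.41 in dcKO (adjusted p = 0.106 by limma), and Macf1, a linker of actin and microtubules, −0.33 and −0.45 (adjusted p = 0.367).

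**Figure D4:**
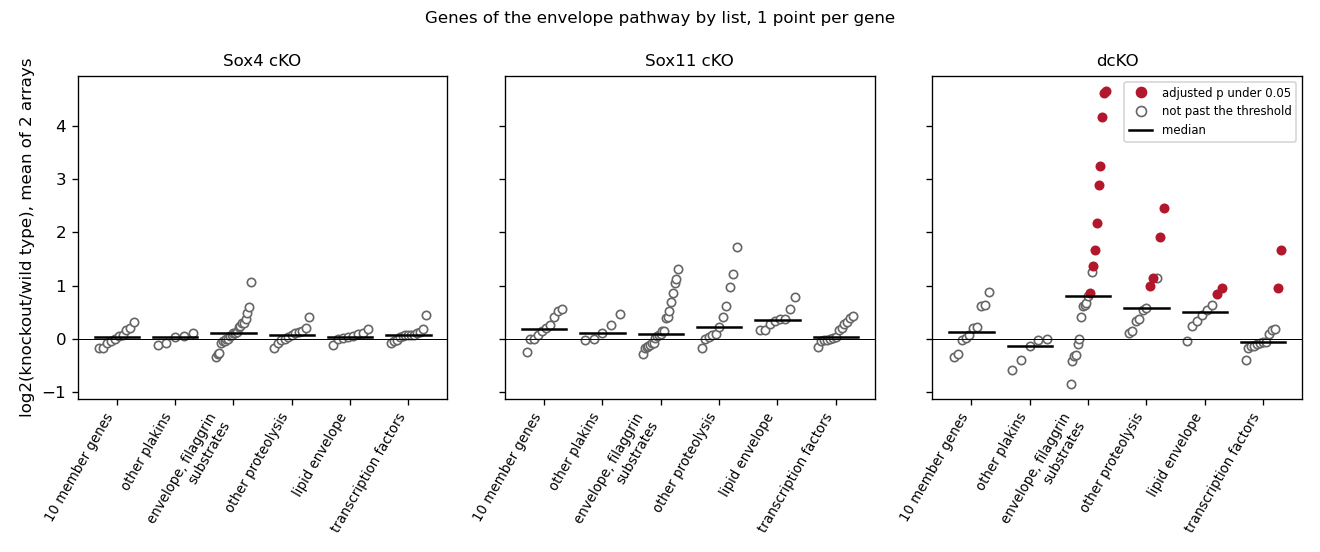
Points are genes, placed by list (horizontal axis) and by mean log2(knockout/wild type) of 2 arrays (vertical axis), with 1 panel per genotype, filled where the adjusted p was under 0.05 and with a black bar at the list median. In dcKO the substrates reach 4.66 and 9 of 21 are filled, while the 10 member genes lie between −0.34 and 0.88 and none is filled.

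The calls for Asprv1, Casp14 and Tgm3 in dcKO differed between processing settings. Asprv1 lay between 0.57 and 1.20 under 16 other settings and passed in 6, Casp14 between 0.50 and 0.79 and passed in 2, and Tgm3 between 0.23 and 0.83 and passed in 3. With a normexp offset of 50 all 3 passed (adjusted p of 0.0293 for Asprv1, 0.035 for Casp14 and 0.0278 for Tgm3), and 1376 probes were called in all, against 464 with the offset of 16. Every one of these 3 values stayed above 0 in every setting run.

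**Figure D5:**
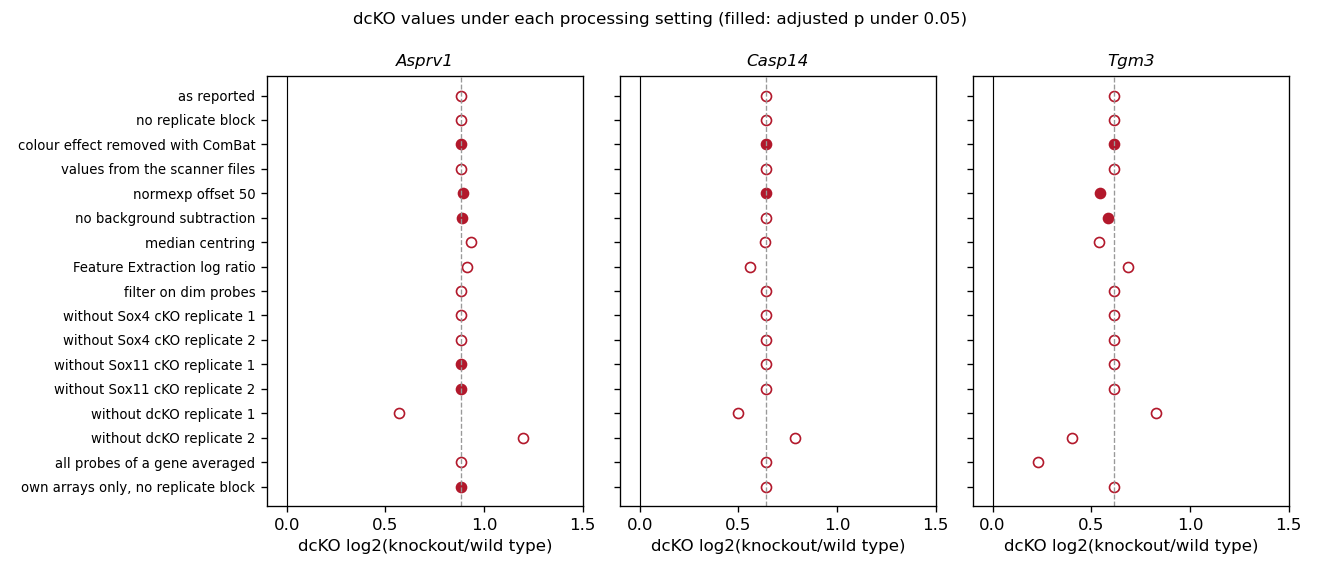
Each point is the dcKO log2(knockout/wild type) (horizontal axis) of Asprv1, Casp14 or Tgm3 under 1 processing setting (vertical axis), filled where the adjusted p was under 0.05, with a dashed line at the reported value. The values change little between settings other than those that leave out a dcKO array or, for Tgm3, average both probes (0.23).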

How the data were processed

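RNA of 6 knockout and 6 wild-type samples was measured on 6 Agilent SurePrint G3 mouse arrays in 2 colours (62976 spots, 59305 of them not controls). The authors read the images with Agilent Feature Extraction 11.0.1.1, and the deposited scanner files give spot intensity as median signals with local background, a log10 ratio of Cy5 over Cy3, and marks for spots well above background (38.9% to 43.6% of spots per channel). The series table deposited by the authors holds log2 values of knockout over wild type. They equal normexp background correction (offset 16) and loess on the scanner signals, within 0.000318 on each array, without the ComBat colour adjustment that the methods name, and the submitters' notes give limma 3.5.

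The 10 genes and the gene lists were chosen with earlier results of these data known. Groups, replicate numbers and dyes came from the labels. All 55681 non-control probes of the series table were fitted in limma 3.58.1 (R 4.3.3) with 1 coefficient per genotype and 1 for dye orientation, variances moderated by empirical Bayes (prior degrees of freedom 6.65, residual 2) and Benjamini-Hochberg adjustment over all probes, two-sided, at 0.05. The fit was tested on simulated data. Probes were named through RefSeq accessions (28332 probes, 21369 genes), with 1 probe named Flg after the study's probe table. The array's annotation is on another assembly, so no probe coordinates are given. The brightest probe stands for a gene. Named list genes are at most 6 per list past the threshold, largest first, or the 2 with the largest dcKO values among those above background. Deviations of arrays with the same replicate number correlated across probes at 0.259, 0.306 and 0.328, so the numbers, taken from the labels and identical with dye orientation, were kept as a block. A bound ("at least") sets the bright mean against the lowest signal well above background. Alternatives were the block, the colour adjustment, background correction, normalization, a filter on dim probes, the probe choice and leaving out each array. The number of arrays limits the precision.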

Additional observations from a re-analysis of the deposited data

Results flagged for a closer look

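The wild-type level of Evpl on Sox4 cKO replicate 1 stood apart from the other 5 wild-type samples. It was 14.87, against 15.25 to 15.32, and its gap made up 0.835 of the whole range. The wild-type level of Tgm1 on Sox11 cKO replicate 2 was 9.64, against 10.36 to 10.73, with a gap of 0.656 of the range. For Padi2, not above background in any sample, the wild-type level on Sox4 cKO replicate 2 had a gap of 0.655 of the range (5.19, against 4.72 to 4.88). With 10 genes examined for 6 samples each, chance flags about 1 in 20 such groups. Tgm5 was lower on both Sox4 cKO arrays and higher on both Sox11 cKO arrays, with mean values 0.69 apart on the log2 scale, and this difference was not tested.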

How the results depend on the processing

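In dcKO the count of members past the threshold was 0 of 10 as reported. It was 3 with the ComBat colour adjustment (Asprv1, Casp14 and Tgm3), 3 with an offset of 50 (the same 3 genes), 2 without background subtraction (Asprv1 and Tgm3), and 1 with the dcKO arrays fitted alone and no block (Asprv1). ComBat's removed effect is not counted in that fit's degrees of freedom, and 14918 of 55681 probes then had an unadjusted p under 0.05. Leaving out 1 array gave 0 to 1, the 1 being Asprv1 without either Sox11 cKO array. Without the replicate block the count stayed at 0 (Asprv1 adjusted p = 0.206), and the block changed no member's call. The counts of the other 5 comparisons, and the count by the study's fold rule (recounted after seeing the data), were 0 in each setting run. Over all probes the dcKO count of 464 became 270 without the block, 3628 with ComBat, 1376 with an offset of 50, 1106 without background subtraction, 0 with Feature Extraction's log ratio (5749 at an unadjusted p under 0.05 in limma), and 167 without dcKO replicate 1 or 265 without dcKO replicate 2.

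Of 474 values of a member in a genotype under an alternative, 28 changed sign, all of members that did not pass. With median centring in place of loess Tgm3 read −0.028 in Sox11 cKO and Padi1 read −0.0082 in dcKO. With an offset of 50 Asprv1 read −0.0021 in Sox4 cKO and Evpl read 0.016 in Sox11 cKO. Without background subtraction Padi1 read 0.050 in Sox4 cKO and Evpl read 0.0041 in Sox11 cKO. With Feature Extraction's log ratio Padi1 read 0.19 in Sox4 cKO and Evpl read 0.012 in Sox11 cKO. With all probes of a gene averaged Padi2 read −0.17 in Sox11 cKO and Padi2 read −0.047 in dcKO. Leaving out 1 array at a time gave log2 values on both sides of 0 for some members: in Sox4 cKO they were Tgm1 −0.034 to 0.13, Tgm3 −0.021 to 0.64, Tgm5 −0.49 to 0.15, Casp14 −0.069 to 0.46, Asprv1 −0.29 to 0.30, Padi1 −0.15 to 0.081, Padi2 −0.40 to 0.24, Padi3 −0.37 to 0.021 and Evpl −0.13 to 0.27. In Sox11 cKO they were Tgm3 −0.047 to 0.18, Asprv1 −0.050 to 1.17, Padi1 −0.75 to 0.25, Padi3 −0.28 to 0.28 and Evpl −0.24 to 0.24, and in dcKO they were Tgm5 −0.031 to 0.49, Padi1 −0.36 to 0.40, Padi2 −0.13 to 0.26 and Ppl −0.15 to 0.11. The slide could not be fitted as a block because all arrays lay on 1 slide. Signal over background limits Padi1, Padi2 and Padi3, which the filter on dim probes left out in part (8 members kept).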
